A study of Homo sapiens with 6 samples.

Results

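The genes of the cadherin switch were followed in H226, a human squamous carcinoma cell line carrying a doxycycline-inducible shRNA against p63 (shp63). The set was drawn up by name and has 10 members: the cadherins CDH1, CDH2 and CDH3, the filament gene VIM, the transcription factors SNAI1, SNAI2, ZEB1, ZEB2 and TWIST1, and the splicing regulator ESRP1. Of these, 9 had a probe set naming that gene alone, among 18404 genes so measured, and ESRP1 was not analysed here. Total RNA was hybridised to 6 Affymetrix HuGene 1.0 ST arrays in 3 groups of 2. The Nutlin-3 group had the shRNA off and received 10 µM Nutlin-3, an inhibitor of the p53 ligase MDM2 that activates p53, for 12 h. The shp63 ON group received 1 µg/mL doxycycline for 48 h to switch the shRNA on. The control group grew untreated with the shRNA off. All groups are the same engineered line, plated in RPMI with fetal calf serum. The sample labels list shp63 ON as untreated, and the doxycycline is given in the treatment protocol. Doxycycline was given only to shp63 ON, without another shRNA and for longer than Nutlin-3, so drug, time, shRNA and knockdown cannot be told apart in that group. The targeted gene was not analysed here.

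Cadherins are membrane proteins that join neighbouring cells through contacts with the same cadherin on the next cell. In the epithelial-mesenchymal transition (EMT) cells lose E-cadherin and gain N-cadherin and the filament protein vimentin, a change known as the cadherin switch. The SNAI, ZEB and TWIST factors drive it, the SNAI and ZEB proteins by binding E-box elements in promoters such as that of E-cadherin, whereas the ESRP proteins keep splicing in its epithelial form. Basal cells of stratified epithelia carry E-cadherin and P-cadherin together with SNAI2, and p63 is the transcription factor that marks those cells.

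Values are log2 intensities as the authors deposited them, and a difference of 1 is a 2-fold change. Arrays of a group correlated at r = 0.997 to 0.998 across genes, against 0.975 to 0.989 between groups. The number of arrays limits the precision. With 2 arrays a group, the smallest two-sided p of an exact permutation test is 0.333. Adjusted p-values therefore come from limma fitted across all 18404 genes, with 0.05 as the threshold for a call. Nothing in the labels says that replicates were separate cultures, so the p-values may measure technical spread only. KRT5, a keratin of basal squamous cells, had 11.87 to 12.39 on the 6 arrays and KRT14 had 10.07 to 10.49. MSLN, the gene of mesothelin, a mesothelial surface protein, had 9.76 to 10.09, and the mesothelial gene CALB2 had 6.09 to 6.35. Over the whole lists, means of the 9 measured squamous markers ran from 6.93 to 12.60. Those of the 8 measured mesothelial markers ran from 4.46 to 12.97, so the 2 lists overlapped in level. Mean levels ran from 4.32 to 9.63 among 8 leukocyte markers, where PTPRC was lowest, and from 3.99 to 8.75 among 10 fibroblast markers, where DCN was lowest.

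With Nutlin-3 the N-cadherin gene fell and SNAI2 rose, whereas in shp63 ON SNAI2 fell and TWIST1 and, by a small step, the E-cadherin gene rose. Of the 9 measured members, 1 rose and 1 fell with Nutlin-3 (22.2%), against 18.5% of all genes called, 9.64% as higher and 8.89% as lower. In shp63 ON 2 rose and 1 fell against control (33.3%), against 36.2% of all genes, 19.7% as higher and 16.5% as lower. Between shp63 ON and Nutlin-3, 4 were higher and 2 lower in shp63 ON (66.7%), against 51.5% of all genes, 27.5% as higher and 24% as lower. The share of members called was thus near that of all genes in each comparison, so the counts are no result about the set. The members' log2 fold changes had medians of −0.05 with Nutlin-3 and 0.09 for shp63 ON, beside −0.00249 and 0.04 over all genes. The comparisons with control share the same 2 control arrays. In these bulk samples fewer cells of a kind and less RNA per cell cannot be told apart.

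**Figure D1:**
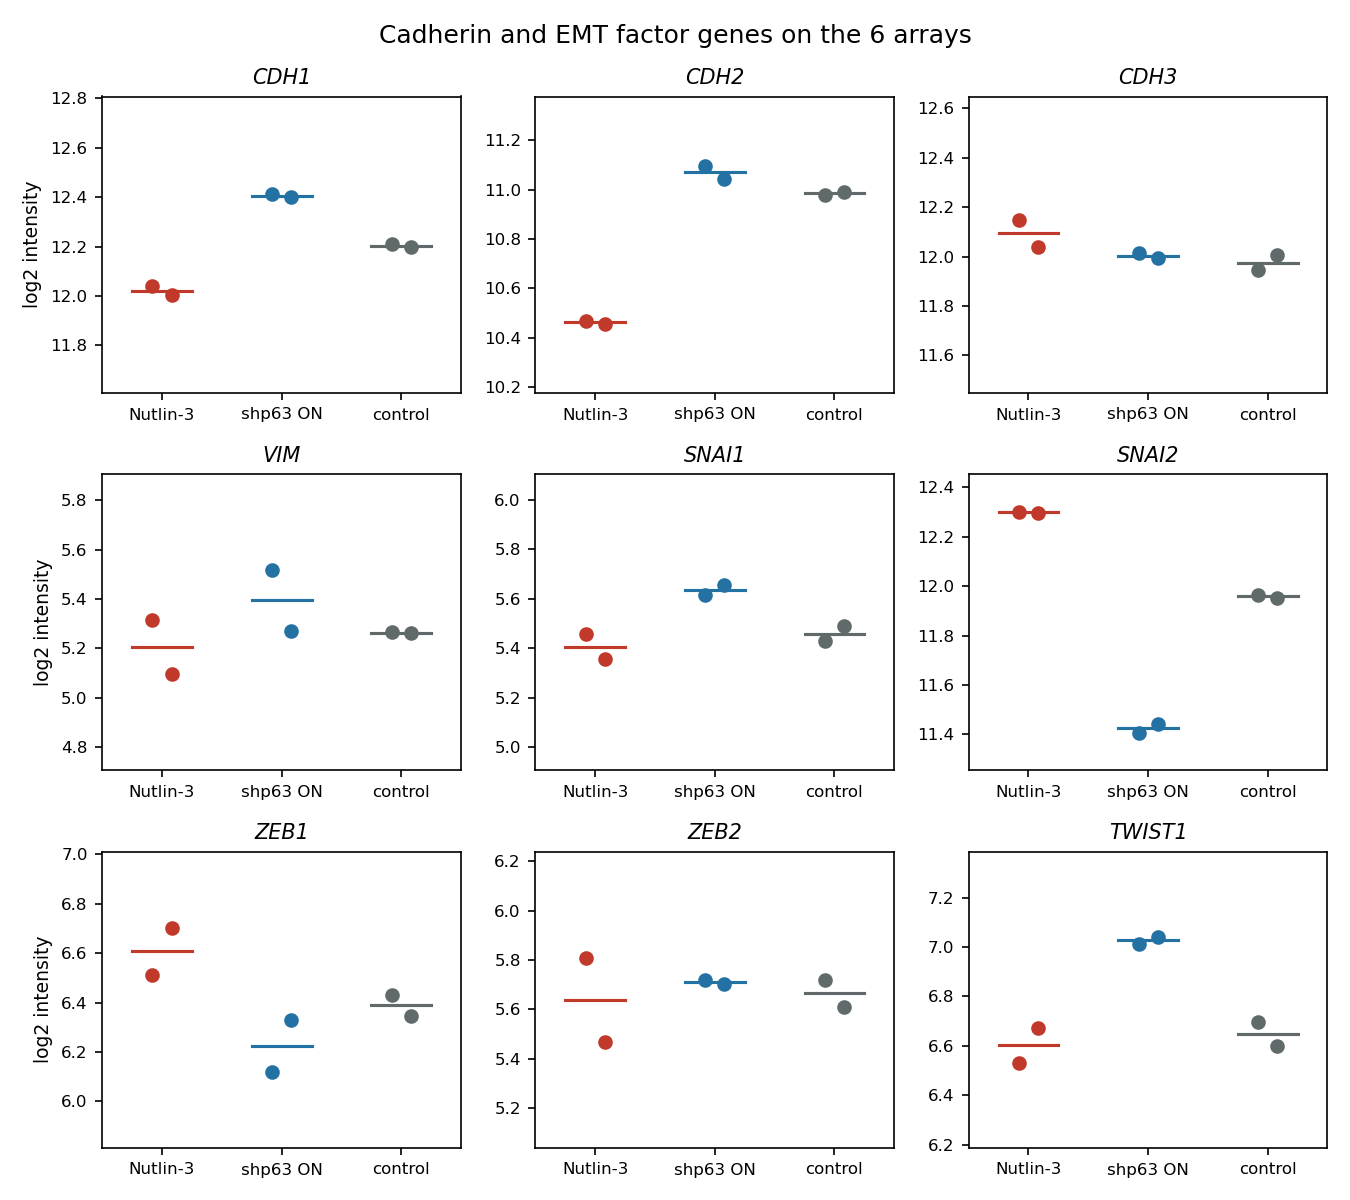
Log2 intensity of the 9 measured genes on the 6 arrays, with Nutlin-3, shp63 ON and control from left to right. Points are arrays and lines are group means of 2 arrays. Every panel spans the same 1.2 log2 units. SNAI2 is highest with Nutlin-3 and lowest in shp63 ON, CDH2 is low with Nutlin-3 alone, and TWIST1 is high in shp63 ON alone.

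CDH2 encodes N-cadherin, the cadherin of neurons and mesenchymal cells. Its values were 10.47 and 10.46 with Nutlin-3, 11.10 and 11.04 in shp63 ON, and 10.98 and 10.99 in control. Both Nutlin-3 arrays lay below all others, and the shp63 ON arrays lay just above control. CDH2 fell with Nutlin-3 to 0.696-fold of control (log2 fold change −0.52, SE 0.06, limma adjusted p = 0.00112). This call held in all 15 alternative settings, which were other scalings, variance models and filters, a replicate block and each array left out. The 15 are not all distinct. Leaving out an array of the group not compared gives the same fit as using only the groups compared. The mean of probe sets leaves the values of a gene with a single probe set as they were. The shp63 ON difference from control was 0.09 (SE 0.06, limma adjusted p = 0.302), with a 95% interval of −0.06 to 0.23. Between the treatments CDH2 was 1.52-fold higher in shp63 ON (log2 fold change 0.61, SE 0.06, limma adjusted p = 0.000206).

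CDH1 encodes E-cadherin, the main cadherin of epithelial adherens junctions. Its values were 12.04 and 12.00 with Nutlin-3, 12.41 and 12.40 in shp63 ON, and 12.21 and 12.20 in control. The groups did not overlap, and replicates within each group were at most 0.04 apart. The difference between Nutlin-3 and control was −0.18 (SE 0.06) and did not pass (limma adjusted p = 0.0750). It passed with an intensity trend in the variance model (limma adjusted p = 0.00471), without variance moderation and with dim genes left out, and ranged up to an adjusted p of 0.252 over the alternatives. In shp63 ON CDH1 rose 1.15-fold over control (log2 fold change 0.20, SE 0.06, limma adjusted p = 0.0333). The call was lost when any 1 control or shp63 ON array was left out, with adjusted p-values of 0.0924 to 0.135, and when each array was centred on its median, with 0.108 (limma, range over all alternatives 0.00153 to 0.135). The treatments also differed from each other, with CDH1 1.31-fold higher in shp63 ON than with Nutlin-3 (log2 difference 0.39, SE 0.06, limma adjusted p = 0.00143), a call kept in all 15 alternatives.

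CDH3 encodes P-cadherin, the cadherin of basal epithelial cells, and neighbours CDH1 in the genome. Its values were 12.15 and 12.04 with Nutlin-3, 12.01 and 11.99 in shp63 ON, and 11.95 and 12.01 in control. The group means spanned 0.12 log2 units, about the largest gap between replicates (0.11). No comparison passed. The 95% intervals ran from −0.04 to 0.28 for Nutlin-3 against control and from −0.13 to 0.18 for shp63 ON against control. Against Nutlin-3 the shp63 ON difference was −0.09 (SE 0.07). It passed as lower when each array was centred on its median (−0.21, limma adjusted p = 0.0307), and its sign turned to 0.02 after quantile normalization and 0.01 after cyclic loess (adjusted p range 0.0307 to 0.895).

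The balance between cadherins was also taken within each array, where a shift of the whole array cancels. CDH1 minus CDH2 was 1.57 and 1.55 with Nutlin-3, 1.32 and 1.36 in shp63 ON, and 1.23 and 1.21 in control. It was thus higher by 0.34 with Nutlin-3 and by 0.12 in shp63 ON than in control, on average. The Nutlin-3 shift came with a lower CDH2 and a CDH1 that did not pass, and the shp63 ON shift with a higher CDH1. CDH3 minus CDH2 was 1.68 and 1.58 with Nutlin-3, 0.92 and 0.95 in shp63 ON, and 0.97 and 1.01 in control. Only changes of these differences between groups can be read, since levels of different probe sets are not on one scale.

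**Figure D2:**
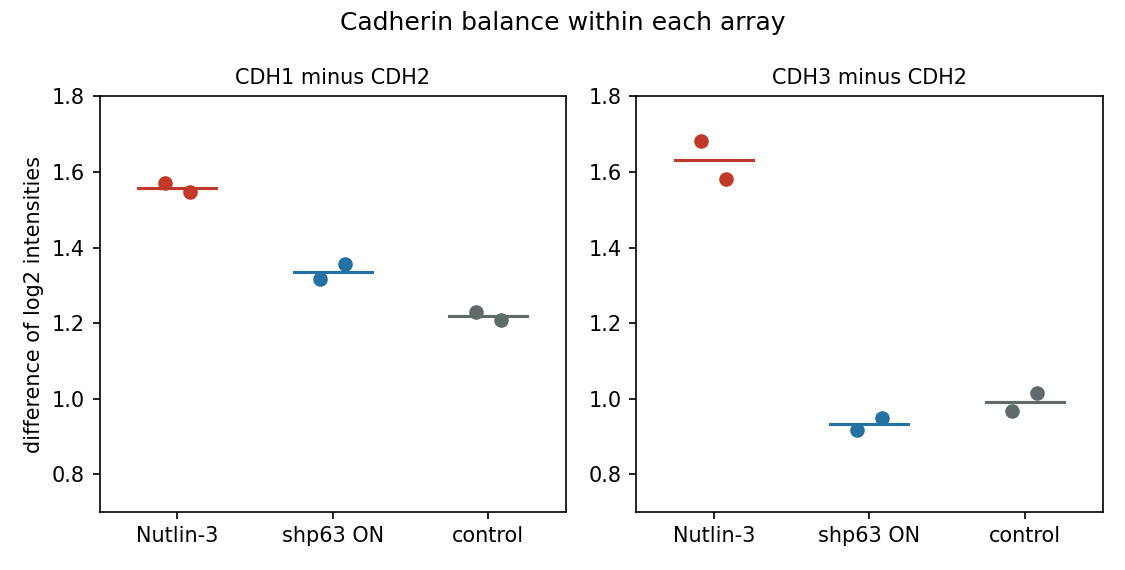
Difference of log2 intensities between CDH1 and CDH2 (left) and between CDH3 and CDH2 (right) within each array, for Nutlin-3, shp63 ON and control from left to right. Points are arrays and lines are means of 2. Nutlin-3 arrays are highest in both panels, and the vertical axis starts above 0.

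The 2 RefSeq promoter windows of CDH2 and those of ZEB1, VIM and ZEB2 were searched for the E-box of SNAI and ZEB proteins, CAGGTG or its reverse complement CACCTG, on both strands. Windows of these 4 of the 9 measured members were searched, and the promoters of CDH1, CDH3, SNAI1, SNAI2 and TWIST1 were not analysed here. Each window runs from 250 bases before to 50 after a transcript start (GRCh38.p14). Of all 35116 such windows, 20.6% hold at least 1 match and 3.49% hold 2 or more. No CDH2, VIM or ZEB2 window holds these letters, whereas 2 of the 7 ZEB1 windows do, with 1 and 3 matches. The CDH2 window at its upstream start, on chromosome 18, is shown because CDH2 fell with Nutlin-3. The ZEB1 window with 3 matches, on chromosome 10, is shown because the ZEB1 level differed between the treatments. Capitals mark the matches, which describe the letters alone and not binding.
CDH2 promoter, chr18:28177081-28177380, minus strand: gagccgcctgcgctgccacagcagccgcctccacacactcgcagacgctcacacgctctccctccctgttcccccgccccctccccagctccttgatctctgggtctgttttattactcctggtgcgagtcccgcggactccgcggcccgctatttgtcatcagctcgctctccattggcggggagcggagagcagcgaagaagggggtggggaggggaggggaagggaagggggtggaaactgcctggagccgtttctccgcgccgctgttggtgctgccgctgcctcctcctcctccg
ZEB1 promoter, chr10:31318966-31319265, plus strand: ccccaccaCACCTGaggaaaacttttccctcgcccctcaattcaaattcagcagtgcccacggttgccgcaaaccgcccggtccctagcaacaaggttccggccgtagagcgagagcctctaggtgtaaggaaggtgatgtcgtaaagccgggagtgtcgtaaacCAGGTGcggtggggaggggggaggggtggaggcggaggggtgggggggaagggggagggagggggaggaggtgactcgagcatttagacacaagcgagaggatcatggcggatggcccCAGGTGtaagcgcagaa

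SNAI2 encodes Slug, a zinc finger repressor present in basal epithelial cells as well as in EMT. It had the widest span of group means among the members, 0.87 log2 units, against replicate gaps of at most 0.04. Its values were 12.30 and 12.30 with Nutlin-3, 11.41 and 11.44 in shp63 ON, and 11.97 and 11.95 in control. All Nutlin-3 arrays lay above control and all shp63 ON arrays below it. SNAI2 rose 1.26-fold with Nutlin-3 (log2 fold change 0.34, SE 0.06, limma adjusted p = 0.00809). Without control replicate 1 the limma adjusted p was 0.0568 and without control replicate 2 it was 0.0566, while the log2 fold change stayed at 0.34 and 0.33 (adjusted p range over the alternatives 8.08e-05 to 0.0568). SNAI2 fell in shp63 ON to 0.691-fold of control (log2 fold change −0.53, SE 0.06, limma adjusted p = 0.000671) and stood at 0.546-fold of its Nutlin-3 level (−0.87, SE 0.06, limma adjusted p = 4.32e-05). Both shp63 ON calls held in all 15 alternatives.

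TWIST1 encodes a basic helix-loop-helix factor of the mesoderm. Its values were 6.53 and 6.67 with Nutlin-3, 7.01 and 7.04 in shp63 ON, and 6.70 and 6.60 in control. The shp63 ON arrays stood above the other 4, and Nutlin-3 and control overlapped. TWIST1 rose 1.30-fold in shp63 ON over control (log2 fold change 0.38, SE 0.07, limma adjusted p = 0.00726). In the band of mean log2 intensity from 6 to 7, where TWIST1 lies, the median gene stood 0.17 higher in shp63 ON, and 34.7% of the 3167 genes were called higher. After cyclic loess, which takes out such a trend with level, the TWIST1 difference was 0.27 (limma adjusted p = 0.0271). The call was lost without control replicate 2 (limma adjusted p = 0.0564) and without variance moderation (0.0635), within a range of 0.00437 to 0.0635. Against Nutlin-3, TWIST1 was 1.34-fold higher in shp63 ON (log2 fold change 0.43, SE 0.07, limma adjusted p = 0.00247). This call was kept in all 15 alternatives, with log2 fold changes of 0.28 to 0.50. The lowest was after cyclic loess (0.28, limma adjusted p = 0.0169), and the median gene of the band stood 0.25 higher in this comparison, with 50.6% called higher.

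ZEB1, a zinc finger repressor of epithelial genes, had 6.51 and 6.70 with Nutlin-3, 6.12 and 6.33 in shp63 ON, and 6.43 and 6.35 in control. The groups did not overlap and ran in the order of SNAI2, with replicates up to 0.21 apart. Neither difference from control passed, at 0.22 (SE 0.10, limma adjusted p = 0.164) for Nutlin-3 and −0.17 (SE 0.10, limma adjusted p = 0.217) for shp63 ON. Between the treatments ZEB1 was lower in shp63 ON, at 0.767-fold of Nutlin-3 (log2 fold change −0.38, SE 0.10, limma adjusted p = 0.0124), while the median gene of its level band was 0.25 higher. This call was lost without Nutlin-3 replicate 2 (limma adjusted p = 0.0667), without shp63 ON replicate 1 (0.0784) and without variance moderation (0.103), within a range of 0.00260 to 0.103.

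SNAI1 encodes Snail, a repressor of E-cadherin closely related to Slug. Its values were 5.46 and 5.36 with Nutlin-3, 5.62 and 5.65 in shp63 ON, and 5.43 and 5.49 in control. The shp63 ON arrays were the highest, while Nutlin-3 and control overlapped. Against control the differences were −0.05 (SE 0.07) with Nutlin-3 and 0.18 (SE 0.07, limma adjusted p = 0.0755) in shp63 ON. Against Nutlin-3 the shp63 ON value passed as higher (0.23, SE 0.07, limma adjusted p = 0.0231) but not after quantile normalization (0.123), median centring (0.217) or cyclic loess (0.268). It was lost in 8 of 14 alternatives in all, with adjusted p from 0.0231 to 0.268. The losses include the fits without Nutlin-3 replicate 2 (limma adjusted p = 0.108), without shp63 ON replicate 1 (0.0616) and without shp63 ON replicate 2 (0.0940). Genes at a mean of 5 to 6 had a median of 0.15 in the same comparison.

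VIM, the gene of vimentin, had 5.32 and 5.10 with Nutlin-3, 5.52 and 5.27 in shp63 ON, and 5.27 and 5.26 in control. These values lie below the array medians of 6.57 to 6.70, and the replicates were up to 0.25 apart. No comparison passed, and the 95% interval was −0.30 to 0.18 for Nutlin-3 against control and −0.11 to 0.37 for shp63 ON against control. ZEB2, the ZEB1 homologue, had 5.81 and 5.47 with Nutlin-3, 5.72 and 5.70 in shp63 ON, and 5.72 and 5.61 in control. Its replicate gap of 0.34 exceeded its span of group means of 0.07, and no comparison passed. A second ZEB2 probe set, with 3.72 and 3.96 with Nutlin-3, 3.68 and 3.92 in shp63 ON, and 3.74 and 3.71 in control, did not separate the groups either.

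**Figure D3:**
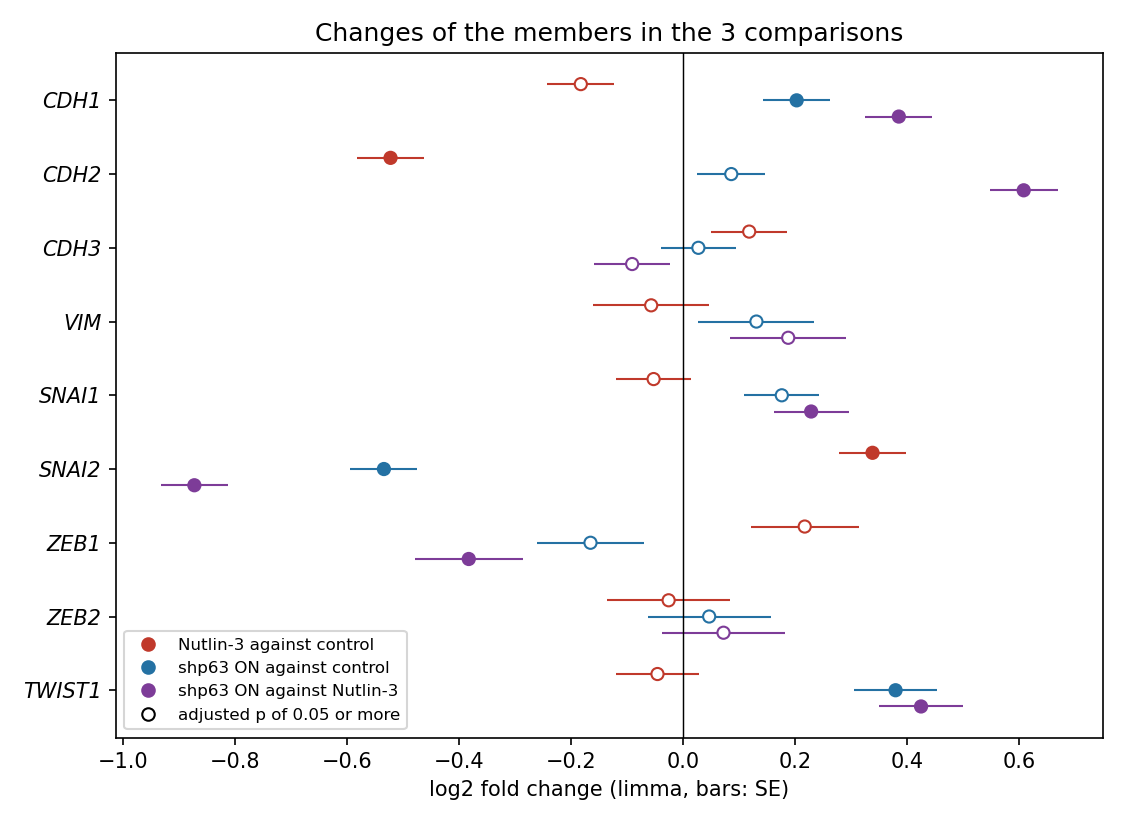
Log2 fold changes of the 9 genes in the 3 comparisons, with limma's standard errors as bars. Filled points passed at an adjusted p under 0.05. SNAI2 lies at 0.34 with Nutlin-3 and −0.53 in shp63 ON, and CDH2 at −0.52 and 0.09.

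Genes with the most similar pattern were sought for each cadherin by Pearson correlation over the 6 arrays, among the genes whose group means spanned at least 0.5 log2 units. For CDH2 these were CNN1, a calponin that binds actin in smooth muscle (r = 0.998), the calcium channel subunit gene CACNG4 (r = 0.997) and the chromatin protein gene HMGB3 (r = 0.996). CNN1 had 8.91 and 8.84 with Nutlin-3, 9.68 and 9.65 in shp63 ON, and 9.56 and 9.56 in control. For CDH1 they were SPRNP1, FILIP1L and NPTN, the gene of the adhesion protein neuroplastin, each at r = 0.999. For CDH3 they were MATN1-AS1 (r = 0.964), the lysosomal mannosidase gene MAN2B1 (r = 0.959) and ARL14 (r = 0.950). The points are 3 groups of 2 arrays, so high values of r are common, and for CDH3 they follow differences within the replicate spread.

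Of 29 measured genes of epithelial state, 15 rose, 1 fell and 13 did not pass in shp63 ON against control, with a median of 0.24 on the log2 scale beside 0.04 over all genes (0.30 after cyclic loess and 0.18 after median centring). The share that rose was 51.7%, against 19.7% of all genes. With cyclic loess 17 rose, and with median centring 11. ELF3, an epithelial ETS factor, had 9.59 and 9.62 in shp63 ON against 8.50 and 8.52 in control (log2 fold change 1.09, SE 0.06). The membrane protease ST14 (1.04, SE 0.06), its partner protease PRSS8 (0.82, SE 0.08) and the claudin CLDN4 (0.77, SE 0.10) followed. Of 9 measured markers of squamous epithelium, 2 rose and 4 fell in shp63 ON (66.7% called, against 36.2% of all genes). Their median was −0.17 and their highest log2 fold change 0.36. The falls were DSG3 (−0.73, SE 0.06), SFN (−0.60, SE 0.07), DSC3 (−0.57, SE 0.07), which like DSG3 is a cadherin of desmosomes, and KRT5 (−0.37, SE 0.07). Of the same 9 markers, 4 rose and 0 fell with Nutlin-3 (44.4%, against 18.5% of all genes). These were DSG3 (2.03, SE 0.06), KRT15 (0.93, SE 0.06), SFN (0.81, SE 0.07) and DSC3 (0.76, SE 0.07). With Nutlin-3, 3 of the 29 epithelial state genes rose and 5 fell, with a median of −0.05 (27.6% called, against 18.5% of all genes). The tight junction protein MARVELD2 (0.80, SE 0.06) and the epidermal factor GRHL3 (0.67, SE 0.07) rose, whereas ELF3 (−0.57, SE 0.06) and the junction protein TJP3 (−0.42, SE 0.07) fell.

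Genes of mesenchymal state moved both ways. Of 27 measured, 8 rose and 5 fell in shp63 ON, with a median of 0.12 and 48.1% called against 36.2% of all genes, or 5 and 5 after median centring. The share that rose was 29.6%, against 19.7% of all genes, and the share that fell was 18.5%, against 16.5%. With Nutlin-3, 3 rose and 4 fell, with a median of −0.10 (25.9%, against 18.5% of all genes). In shp63 ON the largest changes were falls of the fibrillin FBN1 (−0.79, SE 0.06), the adhesion receptor CD44 (−0.65, SE 0.08) and the receptor kinase AXL (−0.60, SE 0.06), and a rise of the smooth muscle actin ACTA2 (0.63, SE 0.08). With Nutlin-3 the membrane protease MMP14 (0.61, SE 0.07) and CD44 (0.47, SE 0.08) rose, and the matrix protein TNC (−0.42, SE 0.07) and ACTA2 (−0.40, SE 0.08) fell. CD44 thus passed as higher with Nutlin-3 and as lower in shp63 ON, as SNAI2 did, while ACTA2 did the reverse.

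**Figure D4:**
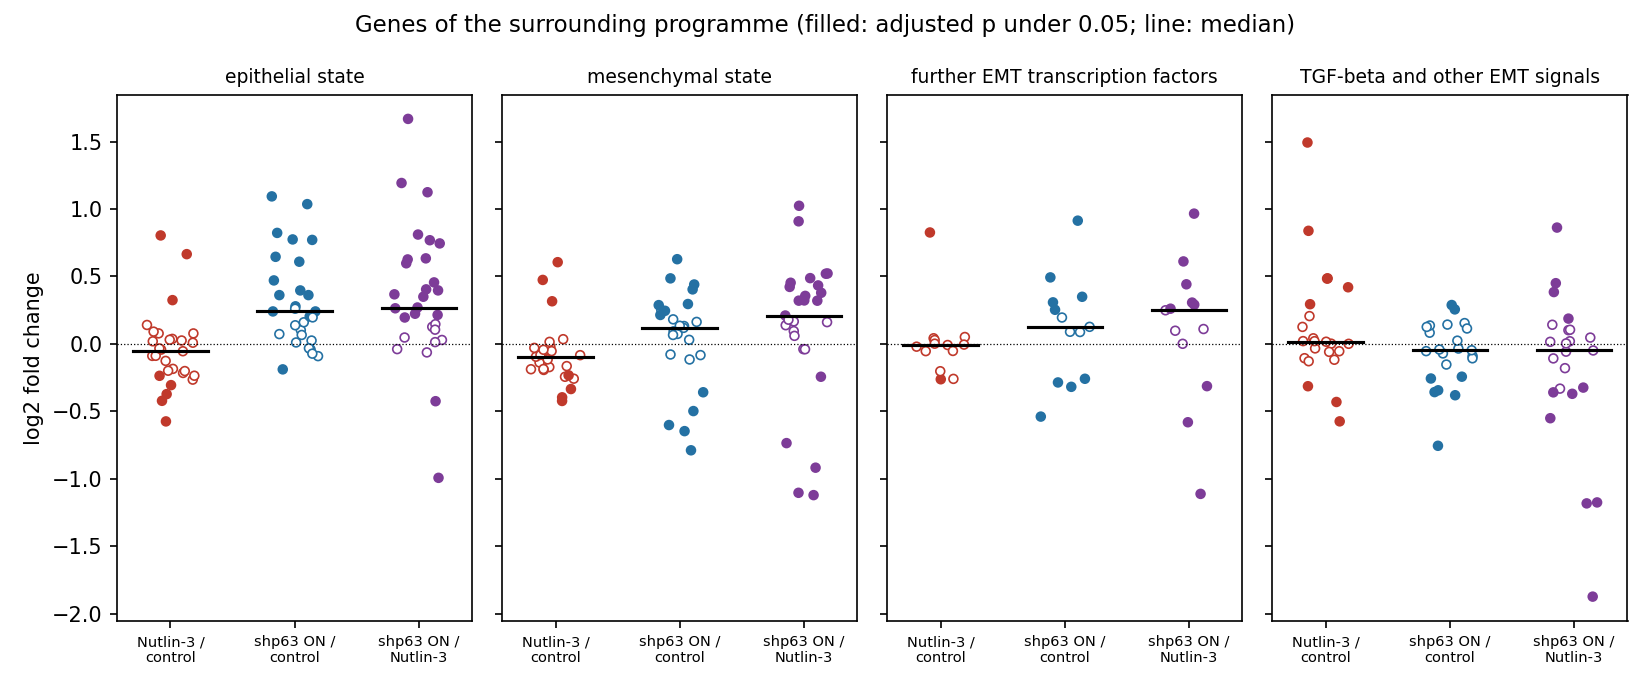
Log2 fold changes of the genes of 4 lists in the 3 comparisons, each point a gene and each line the list's median. Filled points passed at an adjusted p under 0.05. In shp63 ON against control 15 of 29 epithelial genes lie above 0 as filled points, while mesenchymal genes lie on both sides.

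Among 13 further EMT transcription factors, 1 rose and 1 fell with Nutlin-3, the AP-1 subunit FOSL1 (0.83, SE 0.08) and SOX4 (−0.26, SE 0.06), which is 15.4% against 18.5% of all genes. In shp63 ON 5 rose and 4 fell, led by the osteoblast factor RUNX2 (0.91, SE 0.07) and the helix-loop-helix factor TCF4 (−0.54, SE 0.09), or 4 and 2 after cyclic loess. That is 69.2% called, against 36.2% of all genes. Of 23 genes of TGF-beta and other EMT signals, 6 rose and 3 fell with Nutlin-3, among them FBXW7, a ubiquitin ligase subunit (1.49, SE 0.11), the receptor NOTCH1 (0.84, SE 0.07) and the ligand TGFB2 (−0.57, SE 0.06). That is 39.1%, against 18.5% of all genes. In shp63 ON 2 rose and 6 fell, or 4 and 4 after quantile normalization, and the share called (34.8%) was near the 36.2% of all genes. The falls were led by those of the Notch ligand JAG1 (−0.76, SE 0.07), FBXW7 (−0.38, SE 0.11), TGFB1 (−0.36, SE 0.07) and NOTCH1 (−0.34, SE 0.07).

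Some other cadherins changed more strongly. Of 18 measured, 3 rose and 1 fell with Nutlin-3, and 3 rose and 1 fell in shp63 ON. The share called, 22.2% in each, lay near the 18.5% of all genes with Nutlin-3 and below the 36.2% in shp63 ON. CDH10, a type II cadherin of the nervous system, had 7.62 and 7.67 with Nutlin-3, 5.06 and 5.27 in shp63 ON, and 5.71 and 5.51 in control. It rose with Nutlin-3 (2.03, SE 0.10) and fell in shp63 ON (−0.45, SE 0.10). CDH10 was the only 1 of the 18 called lower in shp63 ON, a count that ranged from 0 to 2 over the 15 alternatives. Its shp63 ON and control values lay below the array medians of 6.57 to 6.70. The related CDH8 rose with Nutlin-3 (0.90, SE 0.12). CDH5, the endothelial cadherin, had 8.10 and 8.07 with Nutlin-3, 9.21 and 9.03 in shp63 ON, and 8.58 and 8.52 in control. It fell with Nutlin-3 (−0.47, SE 0.08) and rose in shp63 ON (0.57, SE 0.08). Of the 8 endothelial markers, which include CDH5, 1 rose and 1 fell with Nutlin-3 (25% called, against 18.5% of all genes). The rise was lost after quantile normalization and cyclic loess. In shp63 ON 3 rose, near the share of all genes (37.5%, against 36.2%), or 2 after quantile normalization, median centring and cyclic loess. ERG (0.33, SE 0.08) and VWF (0.31, SE 0.08) were the others that rose there. The part of these markers in the CDH5 result was not tested. Among 17 catenins and adherens junction partners, 5 rose with Nutlin-3 and 12 did not pass (29.4% called, against 18.5% of all genes), led by the adhesion receptors NECTIN4 (0.94, SE 0.10) and NECTIN1 (0.59, SE 0.07). In shp63 ON 7 rose and 3 fell (58.8% called, against 36.2% of all genes), or 4 and 5 after median centring, with NECTIN4 (0.46, SE 0.10) and NECTIN2 (0.42, SE 0.07) among the rises.

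MicroRNAs of the miR-200 family and miR-34a are known to repress ZEB1 and ZEB2, and SNAI1. The array reads RNA from their genes and cannot show the mature forms. Of 7 measured microRNA genes, MIR34A, a direct p53 target, rose with Nutlin-3. It had 6.08 and 6.12 with Nutlin-3, 5.03 and 4.98 in shp63 ON, and 5.14 and 5.10 in control (Nutlin-3 log2 fold change 0.98, SE 0.06, limma adjusted p = 5.73e-05). The other 6 did not pass with Nutlin-3, so 14.3% were called, against 18.5% of all genes. MIR200B had 6.10 and 5.91 with Nutlin-3, 6.50 and 6.42 in shp63 ON, and 6.16 and 6.23 in control. It passed as higher in shp63 ON against control (0.27, SE 0.08, limma adjusted p = 0.0352), and the call was lost after quantile normalization, median centring and cyclic loess. No other gene of the 7 passed there (14.3% called, against 36.2% of all genes). Mature sequences from RefSeq (GRCh38.p14) are shown with the seed, bases 2 to 8, in capitals, since seeds group the family: miR-200b, miR-200c and miR-429 share AAUACUG, and miR-200a and miR-141 share AACACUG.
hsa-miR-34a-5p: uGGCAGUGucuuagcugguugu
hsa-miR-200b-3p: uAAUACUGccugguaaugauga
hsa-miR-200c-3p: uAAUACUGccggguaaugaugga
hsa-miR-429: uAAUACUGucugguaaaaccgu
hsa-miR-200a-3p: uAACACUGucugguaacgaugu
hsa-miR-141-3p: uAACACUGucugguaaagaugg

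Of 15 splicing factors of epithelial and mesenchymal programmes, 2 rose and 1 fell with Nutlin-3 (20% called, near the 18.5% of all genes), and 3 rose and 6 fell in shp63 ON (60%, against 36.2% of all genes). In shp63 ON 3 of them rose and 4 fell after quantile normalization and after cyclic loess, and 2 rose and 6 fell after median centring. The RNA-binding protein CELF2 rose with Nutlin-3 (1.36, SE 0.15), and the splicing regulator MBNL3 rose with Nutlin-3 (0.42, SE 0.06) and fell in shp63 ON (−0.69, SE 0.06). ESRP2, the paralogue of ESRP1, had 9.89 and 9.75 with Nutlin-3, 10.15 and 10.04 in shp63 ON, and 9.80 and 9.83 in control, and rose in shp63 ON (0.28, SE 0.08). Of 17 corepressors of SNAI and ZEB factors, 3 rose and 5 fell with Nutlin-3 (47.1%, against 18.5% of all genes), and 2 rose and 9 fell in shp63 ON (64.7%, against 36.2% of all genes). After quantile normalization 1 rose and 6 fell with Nutlin-3, and 1 rose and 6 fell in shp63 ON. After median centring 0 rose and 9 fell in shp63 ON. The methyltransferase EZH2 fell in both treatments, by 0.98 with Nutlin-3 and by 1.12 in shp63 ON on the log2 scale. Proliferation genes moved with the groups too: all 8 listed fell with Nutlin-3 (median −1.87) and in shp63 ON (median −2.31), and their part in the changes above was not tested. Their mean was 6.96 to 7.12 with Nutlin-3, 6.70 to 6.91 in shp63 ON and 8.96 to 9.05 in control. Squamous markers averaged 10.53 to 10.57 with Nutlin-3, 9.84 to 9.88 in shp63 ON and 10.04 to 10.07 in control over 9 measured genes. The 8 measured mesothelial markers averaged 7.68 to 7.71 with Nutlin-3, 7.68 to 7.79 in shp63 ON and 7.57 to 7.64 in control. Of the 10 fibroblast markers 3 rose and 1 fell in shp63 ON (40% called, near the 36.2% of all genes). After quantile normalization, median centring and cyclic loess 0 rose, and the fall was lost after quantile normalization and cyclic loess. The fibroblast markers averaged 5.89 to 5.91 with Nutlin-3, up to 6.02 in shp63 ON and 5.93 to 5.95 in control. Among the 8 leukocyte markers LAPTM5 (0.89, SE 0.06) and CD68 (0.29, SE 0.06) rose with Nutlin-3, and 6 did not pass (25% called, against 18.5% of all genes). In shp63 ON CD68 (0.75, SE 0.06), CD14 (0.62, SE 0.08) and ITGB2 (0.37, SE 0.08) rose, and 5 did not pass (37.5% called, near the 36.2% of all genes). Leukocyte markers averaged 6.52 to 6.57 with Nutlin-3, 6.67 to 6.68 in shp63 ON and 6.41 to 6.44 in control, and the 8 endothelial markers, CDH5 among them, 5.31 to 5.34 with Nutlin-3, 5.62 to 5.66 in shp63 ON and 5.45 to 5.51 in control. The part of these lists in the results was not tested.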

How the data were processed

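Total RNA of 6 H226 samples was measured on Affymetrix HuGene 1.0 ST arrays, per the labels. The authors deposited 1 value per probe set and array, taken here as log2 intensity from its range of 2.94 to 14.9, with array medians of 6.57 to 6.70. The submitters' processing notes name Partek, and the design text names a one-way analysis of variance. Background correction, normalization and probe set summary were not given in the labels used here.

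Of 32321 probe sets, 19158 name 1 gene, 1388 several and 11775 none in the platform annotation. Single-gene probe sets were used, the one with the highest mean standing for a gene (637 genes had several). All 6 arrays were fitted with limma 3.58.1 in R 4.3.3 (1 mean per group, lmFit and eBayes, 3 residual degrees of freedom), with Benjamini-Hochberg adjustment over 18404 genes. The fitting was tested on simulated data. The members and gene lists were chosen with earlier results of these data known, so counts over lists are descriptions. Named list genes are up to 4 per list and comparison with the largest called change and groups apart. ESRP2, KRT14, CALB2, PTPRC and DCN were chosen after values were seen. Alternatives are quantile normalization, median centring, cyclic loess, variance settings, the mean of probe sets, a filter on dim genes, only the groups compared, the replicate block and each array left out.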

Additional observations from a re-analysis of the deposited data

How the results depend on the processing

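Some of the 15 alternatives give the same fit for a given comparison. Over all 15, the CDH1, CDH2, SNAI2 and TWIST1 differences between shp63 ON and Nutlin-3 kept direction and call. So did the CDH2 fall with Nutlin-3 and the SNAI2 fall in shp63 ON. The number of members lower with Nutlin-3 was 2 instead of 1 with an eBayes trend, without variance moderation and with the dim-gene filter, since CDH1 then passed. Members higher in shp63 ON against control were 1 instead of 2 with median centring and without moderation, and members lower in shp63 ON against Nutlin-3 were 1 instead of 2 without moderation and 3 with median centring. Members higher in that comparison were 3 instead of 4 with quantile normalization, median centring and cyclic loess. Leaving out 1 array each gave 0 to 1 members higher with Nutlin-3, 0 to 2 higher in shp63 ON against control and 1 to 2 lower in shp63 ON against Nutlin-3, with fewer arrays in each fit. Over all genes the calls with Nutlin-3 were 3410, or 1236 without moderation and 1405 to 2991 with 1 array left out. For shp63 ON against control they were 6670, or 3003 without moderation and 3454 to 6960, and for shp63 ON against Nutlin-3 9481, or 6089 and 7356 to 8918. Median centring moved the median log2 fold change of all genes between shp63 ON and Nutlin-3 by −0.12. Its split was 2609 higher and 1062 lower with Nutlin-3 (1774 and 1636 as deposited), 2418 and 3854 in shp63 ON against control (3634 and 3036), and 3314 and 6565 against Nutlin-3 (5057 and 4424). With the replicate block the calls were 3097, 6530 and 9405, and the counts of members were the same. Deviations of same-numbered arrays correlated at −0.06, −0.02 and 0.11, so the numbers are not taken as pairs. VIM, SNAI1 and ZEB2 lie in the lowest quartile of mean intensity (under 5.85) and so have no value under the dim-gene filter. The causes of these changes were not tested.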
